A study of Mus musculus with 32 samples.

Results

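Cytosolic sensors of RNA and DNA are the cell's own alarm for foreign or misplaced nucleic acid. The helicases RIG-I (gene Ddx58) and MDA5 (Ifih1) recognise double-stranded RNA and signal through MAVS, a protein of the mitochondrial outer membrane, whereas cGAS (Cgas) binds double-stranded DNA and makes the second messenger cGAMP, which activates STING (gene Tmem173). Both routes converge on the kinase TBK1 and on type I interferon, and many of their components are themselves interferon-stimulated genes. The set described here comprised 10 named genes of these routes: the RIG-I-like helicases Ddx58, Ifih1 and Dhx58, the adaptor Mavs, the DNA sensor Cgas, its effector Tmem173, the kinase Tbk1, the RNA- and Z-nucleic-acid-binding effectors Eif2ak2 (PKR) and Zbp1, and the DNA exonuclease Trex1. By Ensembl identifier, 9 of the 10 were found among the 12451 genes of the count table, and Trex1 was not analysed here.

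Activin-A is a ligand of the TGF-β family and IFN-γ the type II interferon, and the comparisons cover each factor alone and their combination in cultured tumor cells. YUMM3.3, a Braf mutant mouse melanoma cell line, was left untreated (NT) or received IFN-γ at 20 ng/ml, Activin-A (ActA) at 40 ng/ml or both, for 4 or 12 hrs, and its mRNA was counted by BRB-seq. The dose of Activin-A is the one in the labels and methods, and figure legends of the study state a different dose for these cells. BRB-seq, a bulk method, barcodes the cDNA of each sample, pools the samples and sequences 3′ ends. The 8 groups held 4 wells each, 32 in all, and because all wells were of 1 cell line, p-values measure the spread between wells of that line. Counts of different genes were not compared as levels, since a 3′ count depends on each gene's 3′ end.

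Totals ranged from 654539 to 1455074 counts per well, so that 3 counts, used as the floor of detection for counting error, corresponded to 2.06 to 4.58 CPM (counts scaled to a common total). The melanocyte genes Pmel, Tyrp1, Dct and Mlana had between 31 and 169 counts in every well. For other markers of the lineage the wells held 8 to 30 counts for Sox10, 6 to 21 for Tyr, 2 to 13 for Mitf and 0 to 9 for Ednrb. Kit and Ngfr were not analysed here. Of 6 immune markers, Ptprc reached at most 5 counts, Cd68 13 and Lyz2 17, and the other 3 were not analysed here. Of the fibroblast markers, Col1a1 had 18 to 93 counts, Pdgfra 5 to 22 and Dcn 0 to 8. Markers of a neural crest or mesenchymal state were Axl (664 to 1577), Sox9 (77 to 228), S100a1 (21 to 63) and Vim (10245 to 25135). Lum, the endothelial markers Pecam1 and Cdh5 and the keratinocyte markers Krt5 and Krt14 were not analysed here. Replicate 1 of Activin-A at 4 hrs stood apart from its group: the chi-square per gene between it and the other 3 wells was 2.45 to 2.89, against 1.16 to 1.54 for the other 45 pairs of wells of 1 group. It also had the highest total, and for the sensing genes described at 4 hrs the values without it are given beside those with it.

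Sequences around the start sites are shown for genes that rose with IFN-γ and whose window held a searched letter pattern, namely Ifih1, Ddx58 and Eif2ak2. No window was used for Dhx58, Zbp1 or Tmem173, which rose as well. Windows of 300 bases around RefSeq start sites (GRCm38.p6) were used for 6 of the 9 genes, namely Ddx58, Ifih1, Mavs, Cgas, Tbk1 and Eif2ak2. They were searched on both strands for a pair of GAAA, one after the other with 2 bases or with 1 base between them, the core letters of the interferon-stimulated response element (ISRE), for TTCNNNGAA, the core of the IFN-γ-activated site (GAS), and for GTCTAGAC, a palindromic SMAD-binding element. Among all 32851 such windows, 3.44% held the GAAA pair with 2 bases between, 3.17% the pair with 1 base, 8.30% TTCNNNGAA and 0.213% GTCTAGAC. Each line gives a stretch of 30 bases on the minus strand, which is the strand of all 3 genes, with the matching letters in capitals:
Ifih1, GAAA pair with 2 bases between, chr2:62646206-62646235: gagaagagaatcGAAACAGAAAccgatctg
Ddx58, GAAA pair with 2 bases between, read on the other strand, chr4:40239804-40239833: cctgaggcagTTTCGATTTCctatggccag
Ddx58, GAAA pair with 1 base between, chr4:40239867-40239896: gtctaggttcaGAAACGAAActggatcccc
Eif2ak2, GAAA pair with 2 bases between, chr17:78882535-78882564: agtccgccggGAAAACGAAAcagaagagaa
Eif2ak2, TTCNNNGAA, chr17:78882732-78882761: cctgcagagctTTCCCAGAAtggaagccag
The windows of Mavs, Cgas and Tbk1 held none of the 4 letter patterns, and no window held GTCTAGAC. These are matches of letters, and binding was not measured. The patterns were chosen after the sequences and the expression values had been seen.

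IFN-γ raised most of the sensing genes and did so at both times. At 4 hrs 6 of the 9 genes passed the test as higher, 0 as lower and 3 did not pass it (edgeR quasi-likelihood test, adjusted p under 0.05), where 5.06% of the 9137 genes tested were called and 4.29% were higher. At 12 hrs 7 were higher, 0 lower and 2 not called, against 9.25% of 8971 genes called, 6.43% higher and 2.82% lower. Eif2ak2 and Zbp1, called at both times, passed the filter on low counts only through the wells with IFN-γ, where they were high. Their calls as higher are therefore not independent of the filter. The median log2 fold change of the 9 genes was 1.41 at 4 hrs and 1.39 at 12 hrs, and the median of all genes was -0.01 at both times. The groups did not overlap for the same number of genes, 6 at 4 hrs and 7 at 12 hrs, where 9.39% and 12.5% of all genes did not overlap. As these are bulk samples, a change in the share of cells that express a gene and a change in RNA per cell cannot be told apart.

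**Figure D1:**
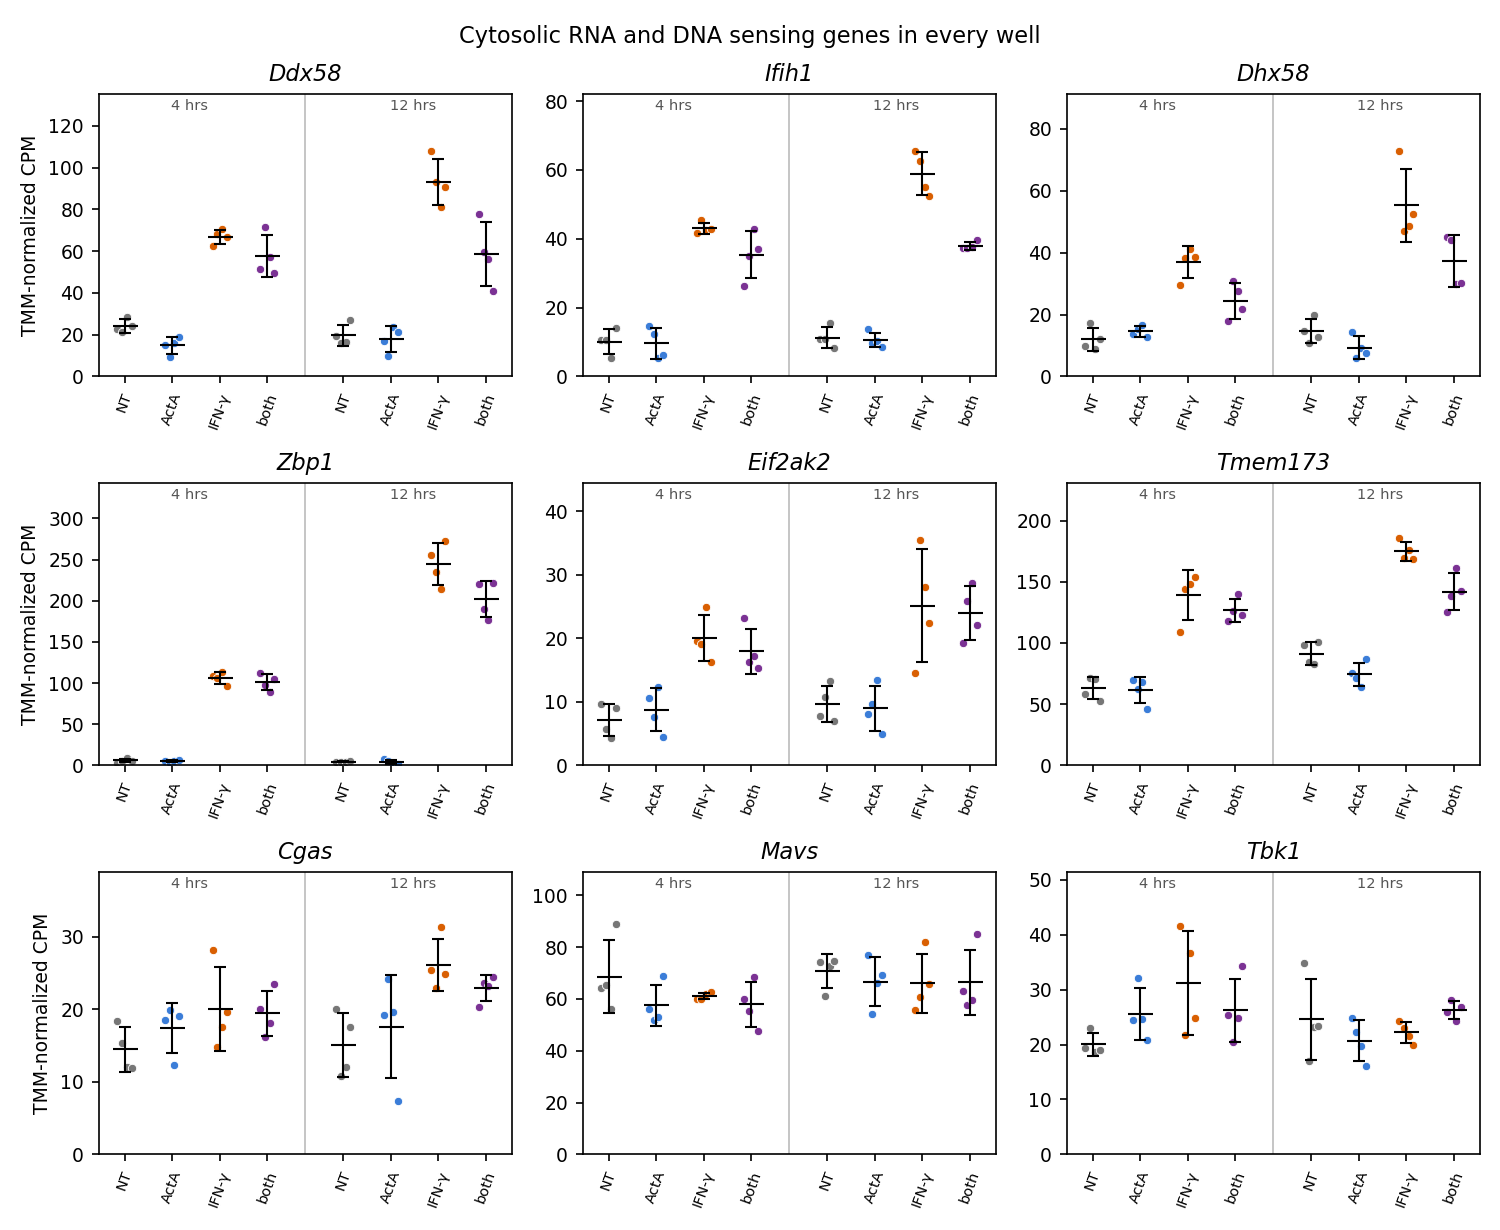
TMM-normalized CPM of the 9 sensing genes in every well, by treatment (NT, untreated; ActA, Activin-A; IFN-γ; both) and time; dots are wells, horizontal bars the mean and whiskers the SD of 4 wells. In the panels of Ddx58, Ifih1, Zbp1, Eif2ak2 and Tmem173 every well with IFN-γ lies above every well without it, and in those of Dhx58, Mavs, Tbk1 and Cgas wells with IFN-γ and wells without it overlap.

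Among the RNA sensors, Ddx58, whose product RIG-I recognises 5′-triphosphate ends of short double-stranded RNA, stood at 22.9, 21.2, 28.5 and 24.0 CPM in untreated wells at 4 hrs and at 62.4, 68.0, 70.6 and 66.8 CPM with IFN-γ. At 12 hrs the untreated wells had 19.3, 16.1, 16.5 and 26.9 CPM and the IFN-γ wells 108, 93.0, 81.0 and 90.6 CPM. The groups were separate at both times. The log2 fold change was 1.49 ± 0.17 (SE, n = 4 and 4, edgeR adjusted p = 4.00e-10) at 4 hrs and 2.25 ± 0.18 (adjusted p = 1.02e-20) at 12 hrs.

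Ifih1 encodes MDA5, the sensor of long double-stranded RNA. Its untreated wells had 10.6, 10.6, 5.49 and 13.99 CPM at 4 hrs and 10.8, 10.8, 15.4 and 8.18 CPM at 12 hrs. With IFN-γ they had 41.6, 45.3, 42.6 and 42.9 CPM at 4 hrs and 65.5, 62.7, 55.1 and 52.4 CPM at 12 hrs. Every treated well was above every untreated well. The log2 fold change was 2.07 ± 0.24 (edgeR adjusted p = 8.18e-10) and 2.36 ± 0.21 (adjusted p = 4.16e-18).

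Dhx58 encodes LGP2, a RIG-I-like helicase without the signaling domains of the other two, which modulates their activity. At 4 hrs the wells went from 9.67, 17.3, 8.78 and 12.0 CPM untreated to 29.4, 38.4, 41.2 and 38.6 CPM with IFN-γ, and at 12 hrs from 14.7, 10.8, 19.8 and 12.9 CPM to 72.8, 47.0, 48.6 and 52.4 CPM. Here, too, the groups did not overlap. The log2 fold change was 1.63 ± 0.23 (edgeR adjusted p = 2.16e-07) and 1.91 ± 0.21 (adjusted p = 5.05e-13).

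Mavs, the adaptor on which these helicases signal, did not pass the test at either time. Its wells ranged from 56.0 to 88.9 CPM untreated and from 60.0 to 62.6 CPM with IFN-γ at 4 hrs, and from 60.9 to 74.8 and from 55.8 to 82.1 CPM at 12 hrs, with overlapping groups. The log2 fold change was -0.16 (95% interval -0.44 to 0.13, edgeR adjusted p = 0.723) at 4 hrs and -0.09 (-0.36 to 0.18, adjusted p = 0.794) at 12 hrs. Rises of the size seen for the helicases were outside these intervals. Leaving out 1 well moved the log2 fold change of Mavs between -0.24 and -0.01 at 4 hrs and between -0.21 and -0.03 at 12 hrs.

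Tbk1, the kinase that phosphorylates IRF3 downstream of both MAVS and STING, had 19.3, 23.1, 18.7 and 19.0 CPM untreated and 41.6, 21.8, 36.7 and 24.9 CPM with IFN-γ at 4 hrs. Treated wells were the higher ones in 15 of 16 comparisons of single wells, but the log2 fold change of 0.58 (95% interval 0.13 to 1.03) did not pass the edgeR test after adjustment (adjusted p = 0.158). At 12 hrs it was -0.19 (-0.63 to 0.25, adjusted p = 0.727), with overlapping wells, and leaving out 1 well moved it between -0.35 and 0.07. The difference between these effects, -0.76 ± 0.31 from 4 to 12 hrs, did not pass either (edgeR adjusted p = 0.498). Leaving out 1 well moved this difference between -0.92 and -0.50.

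Of the DNA-sensing pair, Tmem173 was called at both times and Cgas at 12 hrs. Cgas, the DNA sensor, had 18.5, 15.4, 12.1 and 12.0 CPM untreated and 28.2, 14.8, 17.6 and 19.7 CPM with IFN-γ at 4 hrs, and these overlapped (log2 fold change 0.44, 95% interval -0.08 to 0.95, edgeR adjusted p = 0.493). At 12 hrs the untreated wells had 20.1, 10.8, 12.1 and 17.5 CPM and the IFN-γ wells 25.5, 23.0, 31.3 and 24.9 CPM. These groups did not overlap, and the log2 fold change of 0.76 ± 0.24 passed the edgeR test (adjusted p = 0.0281). This call did not hold with DESeq2 (adjusted p = 0.145), and it was lost when replicate 3 or 4 of IFN-γ or replicate 2 or 3 of the untreated wells was left out (adjusted p = 0.125, 0.0509, 0.157 and 0.0973). The log2 fold change was 0.77 with DESeq2 and 0.66, 0.79, 0.61 and 0.68 without those wells.

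Tmem173 encodes STING, the adaptor of the endoplasmic reticulum that cGAMP activates. It had 58.0, 71.2, 70.3 and 52.9 CPM in untreated wells at 4 hrs and 109, 144, 148 and 154 CPM with IFN-γ. At 12 hrs it had 98.2, 84.2, 82.6 and 101 CPM untreated and 186, 169, 176 and 169 CPM with IFN-γ. The groups were separate at both times. The log2 fold change was 1.16 ± 0.13 (edgeR adjusted p = 6.83e-11) at 4 hrs and 0.93 ± 0.10 (adjusted p = 3.08e-13) at 12 hrs.

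Tmem173 was also the 1 gene of the 9 that differed with time in untreated cells, where it rose by 0.54 ± 0.13 on the log2 scale from 4 to 12 hrs (edgeR over all 32 wells, adjusted p = 0.00323). All 4 untreated wells at 12 hrs were above all 4 at 4 hrs, and 11% of all genes did not overlap in this comparison. The other 8 genes did not pass this test, which called 4.90% of 9332 genes, 2.33% as higher and 2.57% as lower. Of these 8, Eif2ak2 and Zbp1 passed the filter only through wells of other groups. With the untreated wells alone in the fit, 7 of the 9 genes were tested. The effect of IFN-γ on Tmem173 did not differ detectably between the times (difference -0.22, 95% interval -0.55 to 0.10, adjusted p = 0.853).

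The 2 effectors that bind RNA directly both rose. Eif2ak2 encodes PKR, the kinase that halts translation by phosphorylating eIF2α when it binds double-stranded RNA. It was scarce in untreated wells, with 4 to 11 counts at 4 hrs and 6 to 12 at 12 hrs, which are 9.67, 5.77, 4.39 and 8.99 CPM and 7.73, 10.8, 13.2 and 7.01 CPM. With IFN-γ the wells had 19.6, 19.2, 25.0 and 16.3 CPM at 4 hrs and 14.6, 35.5, 28.1 and 22.4 CPM at 12 hrs. The groups did not overlap, although the well with 14.6 CPM came close to the highest untreated well. The log2 fold change was 1.41 ± 0.31 (edgeR adjusted p = 0.000981) and 1.39 ± 0.28 (adjusted p = 7.14e-05).

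Zbp1, a sensor of left-handed Z-RNA and Z-DNA that can start necroptosis through RIPK3 and MLKL, had the highest fold change of the 9 genes. Untreated wells held 4 to 8 counts at 4 hrs and 4 or 5 at 12 hrs, that is 3.52, 5.77, 8.78 and 5.99 CPM and 3.87, 4.48, 4.40 and 5.85 CPM, near the floor. With IFN-γ the wells had 109, 106, 113 and 96.8 CPM at 4 hrs and 256, 235, 214 and 273 CPM at 12 hrs. Both gaps between the groups were wide. The rise was 17.8-fold (log2 4.15 ± 0.20, edgeR adjusted p = 3.93e-25) at 4 hrs and 52.4-fold (log2 5.71 ± 0.18, adjusted p = 1.45e-50) at 12 hrs.

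The IFN-γ wells of Zbp1 at 12 hrs were all above those at 4 hrs, but the test of the difference between the effects did not pass the adjustment (1.57 ± 0.45 on the log2 scale, edgeR adjusted p = 0.0863). Ddx58 had a difference of 0.77 ± 0.27 (adjusted p = 0.360). Of the 9 genes 0 were called in this contrast of times, 3 had an unadjusted p under 0.05, and DESeq2 called 0 of the 3 genes it gave an adjusted p. Over all genes, edgeR called 0.579%, and the share with an unadjusted p under 0.05 is not given here.

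**Figure D2:**
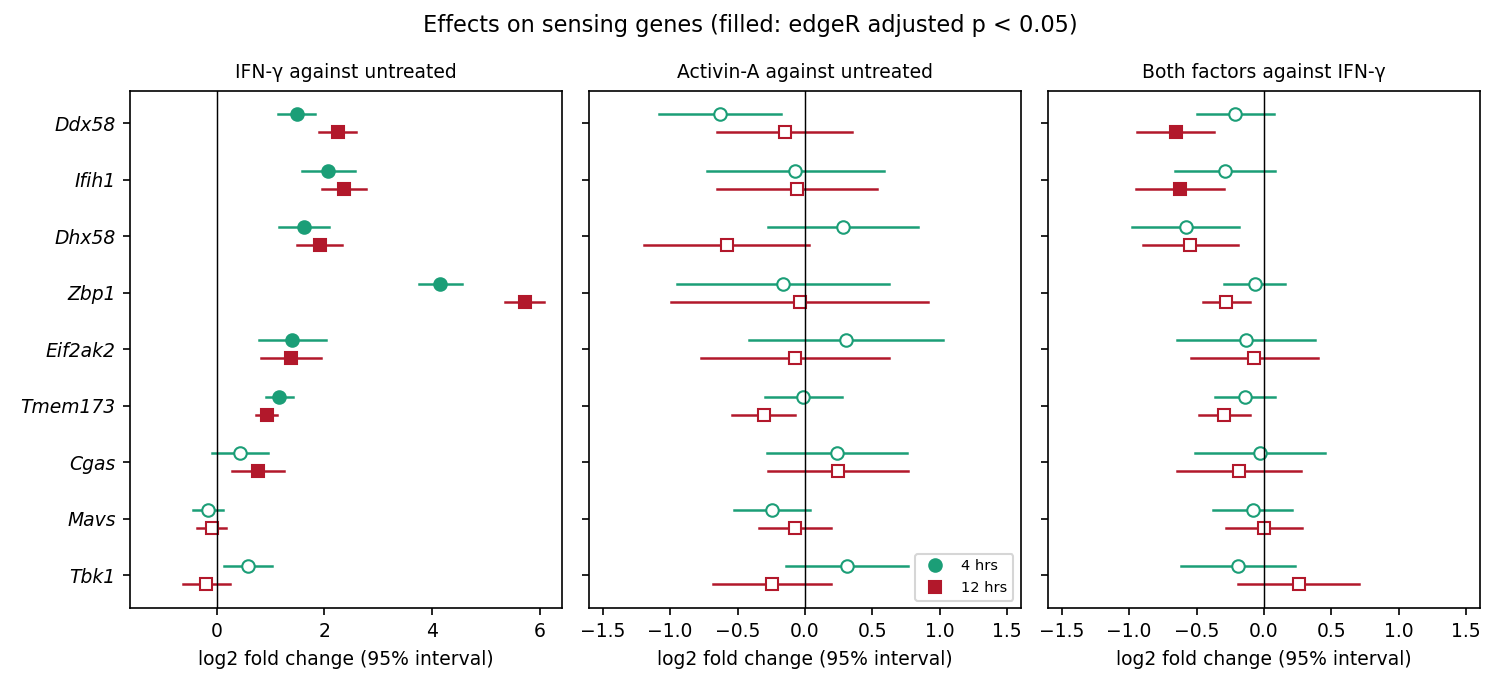
Log2 fold changes of the 9 genes for IFN-γ against untreated, Activin-A against untreated, and both factors against IFN-γ, at 4 hrs (circles) and 12 hrs (squares), with 95% intervals; filled symbols have an edgeR adjusted p under 0.05. The left axis is wider than the others: Zbp1 reaches 5.71 there, while for Activin-A alone all symbols are open and for both factors Ddx58 and Ifih1 are filled at 12 hrs, at -0.65 and -0.62.

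Activin-A alone moved none of the sensing genes past the test. At 4 hrs and at 12 hrs edgeR called 0 of the 9, 1 had an unadjusted p under 0.05 each time, and DESeq2 called 0, against 1.64% of all genes called at 4 hrs (1.05% higher) and 2.41% at 12 hrs (1.25% higher). Eif2ak2 and Zbp1 were among the 9 only through the wells with IFN-γ in the fit. With only the 8 samples compared, 7 genes were tested at either time. The median log2 fold change of the 9 genes was -0.01 at 4 hrs and -0.08 at 12 hrs. Without the well that stood apart, 136 genes were called at 4 hrs, against 150 with it, none of them a sensing gene, and the middle value of the 9 was that of Tmem173, -0.10.

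The genes with an unadjusted p under 0.05 were Ddx58 at 4 hrs and Tmem173 at 12 hrs. Ddx58 had 15.2, 9.18, 15.9 and 19.0 CPM with Activin-A at 4 hrs, all below the 4 untreated wells given above, and 6.19% of all genes did not overlap in this comparison. Its log2 fold change was -0.63 (95% interval -1.08 to -0.18, edgeR adjusted p = 0.174), and it was -0.62 (adjusted p = 0.310) without the well that stood apart. At 12 hrs Ddx58 overlapped, with -0.15 (-0.65 to 0.35, adjusted p = 0.901).

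Tmem173 had 75.5, 71.6, 64.1 and 86.7 CPM with Activin-A at 12 hrs, and the highest of these overlapped with the untreated wells, where 6.89% of all genes did not overlap (log2 fold change -0.31, 95% interval -0.54 to -0.07, edgeR adjusted p = 0.198). At 4 hrs it had 69.9, 62.7, 67.9 and 46.3 CPM, with a log2 fold change of -0.01 (-0.30 to 0.27, adjusted p = 0.989). Without the well that stood apart the value at 4 hrs was -0.10 (adjusted p = 0.894).

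For the other genes the intervals around the Activin-A effect were wider where counts were low. Mavs had -0.24 (-0.52 to 0.04) at 4 hrs and -0.08 (-0.34 to 0.19) at 12 hrs. Dhx58 had 0.28 (-0.28 to 0.84) and -0.58 (-1.19 to 0.03), and Cgas 0.24 (-0.28 to 0.76) and 0.24 (-0.28 to 0.77). Without the well that stood apart, the values at 4 hrs were -0.23 for Mavs, 0.31 for Dhx58 and 0.18 for Cgas. Leaving out any 1 well of the groups compared called none of the 9 genes at either time with edgeR, but the values moved. At 12 hrs Dhx58 ranged from -0.93 (without replicate 1 of Activin-A) to -0.40 and Cgas from 0.07 (without replicate 2 of Activin-A) to 0.46 (without untreated replicate 1), and at 4 hrs Mavs ranged from -0.34 to -0.09 (without untreated replicate 4) and Dhx58 from 0.18 to 0.52 (without untreated replicate 2). For Zbp1, which had 8, 2, 6 and 7 counts at 4 hrs and 9, 6, 2 and 1 at 12 hrs with Activin-A, the interval at 12 hrs ran from -0.99 to 0.92, so that a change of less than about that size was not detectable at this depth. Ifih1 moved from -0.07 to -0.49 (adjusted p = 0.719) at 4 hrs without the well that stood apart, in which it had 14.5 CPM against 12.2, 5.29 and 6.35 CPM in the others.

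When both factors were given, the sensing genes were compared with IFN-γ alone. At 4 hrs edgeR called 0 of the 9, 1 had an unadjusted p under 0.05, and DESeq2 called 0 of the 6 genes it gave an adjusted p, against 0.81% of all genes. At 12 hrs 2 were lower, Ddx58 and Ifih1, 0 were higher and 7 were not called, where 1.03% of all genes were called, 0.457% were higher and 0.568% were lower. At 12 hrs 5 of the 9 had an unadjusted p under 0.05, namely Ddx58, Ifih1, Dhx58, Tmem173 and Zbp1, all with lower values. The share of all genes with such a p is not given here. For 5 of the 9 the wells did not overlap, against 5.66% of all genes. These included Tbk1, which was higher, in place of Zbp1. The median log2 fold change of the 9 was -0.14 at 4 hrs and -0.28 at 12 hrs, and that of all genes -0.01 at both times. The IFN-γ wells enter both this comparison and that with untreated cells, so the values of the 2 comparisons are not independent.

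Ddx58 had 77.9, 59.7, 56.4 and 40.8 CPM with both factors at 12 hrs, below the 81.0 to 108 CPM of IFN-γ alone and above all untreated wells. Its log2 fold change was -0.65 ± 0.14 (edgeR adjusted p = 0.00313). The call was lost with DESeq2 (adjusted p = 0.0538) and without replicate 4 of the wells with both factors, where the value was -0.52 (adjusted p = 0.0801). At 4 hrs the wells had 51.6, 71.8, 57.1 and 49.6 CPM and overlapped with IFN-γ alone (-0.21, 95% interval -0.49 to 0.07, adjusted p = 0.689).

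Ifih1 had 37.3, 37.2, 37.6 and 39.6 CPM with both factors at 12 hrs, a narrow range below the 52.4 to 65.5 CPM of IFN-γ alone, and a log2 fold change of -0.62 ± 0.16 (edgeR adjusted p = 0.0282). DESeq2 gave this gene no adjusted p. The edgeR call held in 2 of 8 fits that left out 1 well, and was lost when each of the 4 wells with both factors was left out in turn (adjusted p = 0.0809, 0.0746, 0.0792 and 0.0580) or without replicate 1 or 2 of IFN-γ (0.125 and 0.134). Over these 8 fits the log2 fold change ranged from -0.68 to -0.57. At 4 hrs the value was -0.29 (-0.66 to 0.08, adjusted p = 0.678).

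The third helicase gene, Dhx58, had 45.2, 44.0, 29.9 and 30.3 CPM with both factors at 12 hrs, also below all wells of IFN-γ alone, but the log2 fold change of -0.55 (95% interval -0.90 to -0.20) did not pass the edgeR test (adjusted p = 0.127). At 4 hrs it had 17.9, 30.8, 27.6 and 21.7 CPM, and the value was -0.58 (-0.98 to -0.18, adjusted p = 0.203). The 3 helicase genes thus had values of -0.55 to -0.65 at 12 hrs, of which those of Ddx58 and Ifih1 passed the test.

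Tmem173 had 125, 139, 162 and 142 CPM with both factors at 12 hrs, against 169 to 186 CPM with IFN-γ alone, without overlap (log2 fold change -0.30, 95% interval -0.48 to -0.11, edgeR adjusted p = 0.125). Zbp1 had 220, 190, 177 and 221 CPM against 214 to 273 CPM, with overlap (-0.28, -0.45 to -0.11, adjusted p = 0.110). Neither passed the test. At 4 hrs their values were -0.14 (-0.36 to 0.08) and -0.07 (-0.29 to 0.16).

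The other 4 genes had intervals that included 0 at 12 hrs. Mavs had 0.00 (-0.28 to 0.28), Eif2ak2 -0.07 (-0.54 to 0.40) and Cgas -0.19 (-0.65 to 0.27). Tbk1 had 26.0, 28.2, 24.3 and 26.8 CPM with both factors, all above the 24.3, 23.0, 21.6 and 20.0 CPM of IFN-γ alone, yet its log2 fold change of 0.26 (-0.19 to 0.70) did not pass the test (edgeR adjusted p = 0.778). The 2 nearest wells of Tbk1 in these groups had 22 and 20 counts.

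The comparison of both factors with Activin-A alone shows the effect of IFN-γ in cells that also received Activin-A, and it shares no well with the comparison of IFN-γ with untreated cells. At 4 hrs 6 of the 9 genes were higher and 0 lower, against 6.07% of all genes called, 4.41% higher and 1.66% lower, and at 12 hrs again 6 were higher and 0 lower, against 9.62% and 6.18%. The genes called at both times were Ddx58, Ifih1, Dhx58, Tmem173, Eif2ak2 and Zbp1, and their wells did not overlap, where 10.1% of all genes did not overlap at 4 hrs and 12.2% at 12 hrs. Here, too, Eif2ak2 and Zbp1 passed the filter only through the wells with IFN-γ, where they were high. Zbp1 rose 19.0-fold at 4 hrs and 44.3-fold at 12 hrs (edgeR adjusted p = 1.35e-25 and 2.21e-46), Tmem173 by 1.03 ± 0.12 and 0.94 ± 0.11 on the log2 scale (adjusted p = 1.95e-09 and 1.66e-11), Ddx58 by 1.90 ± 0.19 and 1.74 ± 0.20 (adjusted p = 1.75e-12 and 6.78e-12) and Ifih1 by 1.86 ± 0.25 and 1.80 ± 0.23 (adjusted p = 3.02e-08 and 4.41e-10). Without the Activin-A well that stood apart, the log2 fold changes at 4 hrs were 4.25 for Zbp1 (4.24 with it), 1.12 for Tmem173, 1.89 for Ddx58 and 2.27 for Ifih1, and all 4 were still called. The Activin-A wells of Zbp1 held 2 to 8 counts at 4 hrs and 1 to 9 at 12 hrs, partly below the floor. Its folds in this comparison are therefore not exact. Cgas, called with IFN-γ alone at 12 hrs, had 0.33 (-0.16 to 0.83, adjusted p = 0.525) here.

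Dhx58 and Eif2ak2 passed this test at 4 hrs with less room. Dhx58 had a log2 fold change of 0.77 ± 0.23 (edgeR adjusted p = 0.0323), with DESeq2 0.76 (adjusted p = 0.175), and with the replicate block 0.71 (edgeR adjusted p = 0.0537). It also lost the call without replicate 1 or 4 of Activin-A (adjusted p = 0.0907 and 0.0960) or replicate 2 or 3 of both factors (0.193 and 0.0987). Replicate 1 of Activin-A is the well that stood apart. Eif2ak2 had 0.97 ± 0.29 (adjusted p = 0.0272), or 1.09 (adjusted p = 0.0314) without that well, with DESeq2 0.99 (adjusted p = 0.139), and lost the call without replicate 2 or 4 of Activin-A (0.0547 and 0.154) or replicate 1 of both factors (0.130). At 12 hrs their values were 1.95 ± 0.26 and 1.39 ± 0.29 (adjusted p = 6.85e-10 and 0.00018).

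**Figure D3:**
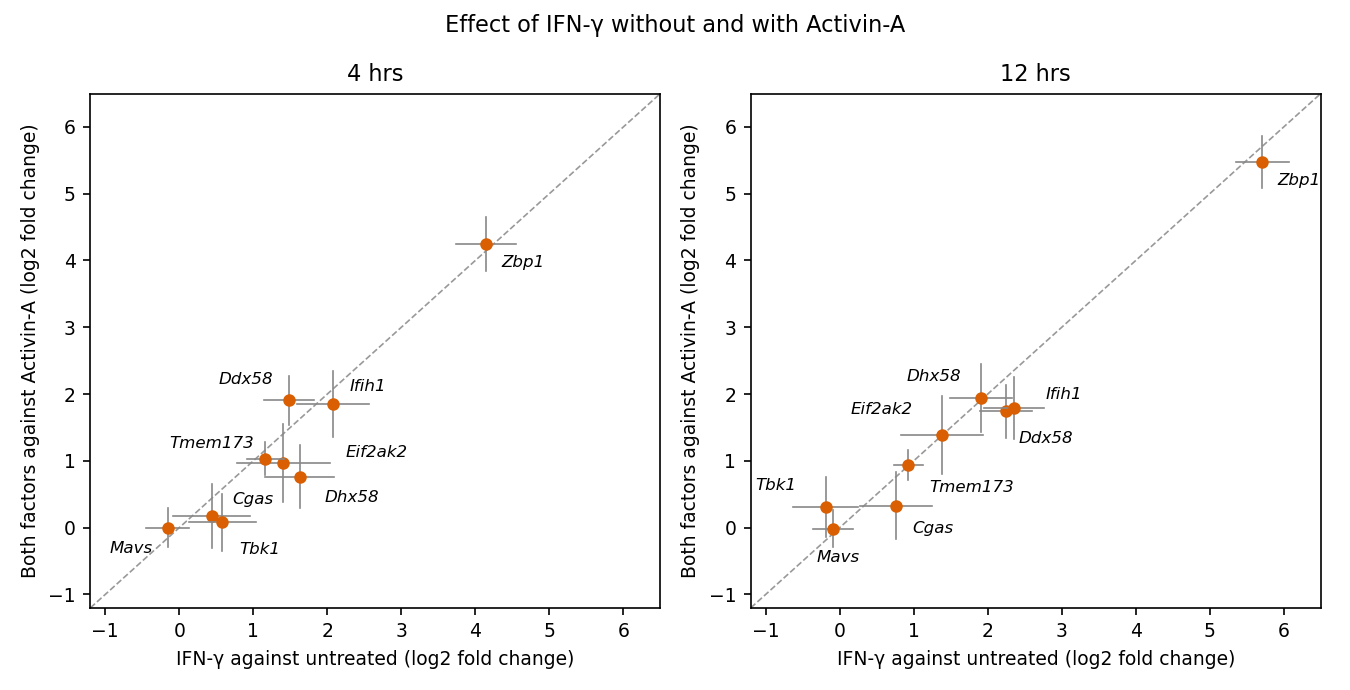
Effect of IFN-γ on the 9 genes without Activin-A (horizontal axis, IFN-γ against untreated) and with it (vertical axis, both factors against Activin-A) as log2 fold changes with 95% intervals at 4 and 12 hrs; the dashed line marks equal effects. At 4 hrs Ddx58 (1.49 and 1.90) lies above the line and Dhx58 (1.63 and 0.77) below it. At 12 hrs Ddx58 (2.25 and 1.74) and Ifih1 (2.36 and 1.80) lie below the line and Dhx58, Tmem173 and Eif2ak2 near it.

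Whether Activin-A acted differently with and without IFN-γ was tested by the interaction, which is the effect of Activin-A with IFN-γ minus that without it. It called 0 of the 9 genes at either time with edgeR and with DESeq2, 1 had an unadjusted p under 0.05 at 4 hrs and 0 at 12 hrs, and over all genes 0% were called at 4 hrs and 0.0111% at 12 hrs. At 12 hrs Ddx58 had -0.50 (95% interval -1.08 to 0.07, adjusted p = 0.815) and Ifih1 -0.56 (-1.24 to 0.11, adjusted p = 0.834). For Tmem173 the value was 0.01 (-0.29 to 0.31, adjusted p = 0.997), the narrowest interval of the 9. At 4 hrs the value of Ddx58 had the opposite sign, 0.42 (-0.12 to 0.95, adjusted p = 0.927), and the same 0.42 without the well that stood apart, and Ifih1 had -0.22 (-0.97 to 0.54), or 0.21 without that well. Dhx58 had -0.86 (-1.54 to -0.18, adjusted p = 0.824) at 4 hrs, and -0.88 without that well. The lower level of Ddx58 and Ifih1 with both factors at 12 hrs was therefore not shown to differ from the effect of Activin-A alone.

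The order of the 8 groups by mean level, given as a description, was alike for the responding genes. For Ddx58, Ifih1, Dhx58, Tmem173, Eif2ak2, Zbp1 and Cgas the 4 groups with IFN-γ held the highest 4 means and IFN-γ at 12 hrs the highest of all. For 5 of them, all but Dhx58 and Cgas, each of the 16 wells with IFN-γ was above each of the 16 without, which held for 2.03% of the 9332 genes tested over all wells in 1 direction or the other. For Zbp1 the lowest well with IFN-γ had 89.5 CPM and the highest without 8.78 CPM, and for Ddx58 these were 40.8 and 28.5 CPM. The gap was narrower for Tmem173, with 109 and 101 CPM, and for Eif2ak2, with 14.6 and 13.4 CPM. Among the groups without IFN-γ, neighbours in the order overlapped for each of these genes. For Mavs, Cgas and Tbk1 all neighbours in the order of means overlapped, and the means ran from 57.5 to 70.7 CPM for Mavs, from 14.5 to 26.2 for Cgas and from 20.0 to 31.3 for Tbk1.

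The genes whose 8 group means of log2 CPM were most like those of the 4 genes with the largest IFN-γ effects were sought among 6982 genes with a mean of at least 20 CPM. For Zbp1 they were Psmb9, an immunoproteasome subunit (Pearson r 0.999), Irf9, the DNA-binding subunit of ISGF3 (0.998), and Ube2l6, a conjugating enzyme for ISG15 (0.998). For Ifih1 they were Snx10, Mlkl and Plgrkt (0.996, 0.996 and 0.991), for Ddx58 Insr, Aig1 and Mlkl (0.997, 0.990 and 0.989) and for Dhx58 Tmem30a, Lgals8 and Ccl2 (0.984, 0.980 and 0.978). These are correlations over 8 means that share wells and treatments, and they describe likeness only.

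A list of 115 other genes of the same pathways was described in the same fits; 107 had counts and 98 passed the filter on low counts. With IFN-γ 17 of the 98 were higher and 0 lower at 4 hrs (17.3%, against 5.06% of all genes), and at 12 hrs 16 were higher and 1 lower (17.3%, against 9.25%). Their median log2 fold change was 0.02 at both times, and at each time 81 of the 98 did not pass the test. With Activin-A alone edgeR and DESeq2 called 0 at either time, and 3 had an unadjusted p under 0.05 at 4 hrs and 10 at 12 hrs. The share of all genes with such a p is not given, so these counts cannot be set against it. With both factors against IFN-γ 1 was higher at 4 hrs (1.02%, against 0.81% of all genes) and 2 were lower at 12 hrs (2.04%, against 1.03%), shares near those of all genes, and DESeq2 called 0 at either time.

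Among the other DNA sensors, 4 of 23 were higher at 12 hrs (21.7% called in either direction, against 9.25% of all genes), 4 were higher at 4 hrs (17.4%, against 5.06%), and at both times all 4 belong to the HIN-200 family, whose members bind DNA: Ifi203 rose by 3.46 ± 0.19 on the log2 scale, Ifi205 by 3.25 ± 0.47, Mndal by 3.03 ± 0.15 and Ifi204 by 2.42 ± 0.12. At 4 hrs these had 4.06, 2.62, 3.17 and 2.59. Their sequences are similar, and how the authors' counting shared reads among them is not known, so the split between members is uncertain. The mean of Ifi205 in untreated wells was 1.65 CPM at 12 hrs and 2.66 CPM at 4 hrs, near or below the floor of 3 counts. The fold changes of Ifi205 are therefore not exact. Polr3g, a subunit of RNA polymerase III, which can transcribe AT-rich DNA into RNA for RIG-I, was the 1 listed gene that fell, by 1.10 ± 0.34 at 12 hrs (edgeR adjusted p = 0.0198), from 15.5 ± 6.71 to 6.75 ± 1.52 CPM (SD, n = 4).

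Nucleases and modifiers that keep self nucleic acid from being sensed were also among those that rose. Samhd1, a dNTP hydrolase, went from 62.2 ± 6.32 to 390 ± 14.02 CPM at 12 hrs (SD, n = 4; log2 fold change 2.66 ± 0.09, edgeR adjusted p = 4.33e-47). Adar, which edits double-stranded RNA, rose by 1.30 ± 0.19 at 12 hrs (adjusted p = 3.19e-08), and Pnpt1, an RNA-degrading enzyme of mitochondria, by 0.75 ± 0.18 (adjusted p = 0.000853). In all, 3 of 13 genes of this class were higher at 12 hrs (23.1%, against 9.25% of all genes called) and 2 at 4 hrs (15.4%, against 5.06%).

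The shares called in the next classes are to be read against 9.25% of all genes at 12 hrs and 5.06% at 4 hrs. Of 11 cofactors of RNA sensors 3 were higher at 12 hrs (27.3%), namely the ubiquitin ligases Rnf135 (1.55 ± 0.29, edgeR adjusted p = 1.76e-05) and Trim25 (1.03 ± 0.15, adjusted p = 1.93e-08), both of which modify RIG-I, and the antiviral RNA-binding gene Zc3hav1 (0.62 ± 0.11, adjusted p = 2.01e-06). Of 15 genes of MAVS and kinase signaling 4 were higher at 4 hrs (26.7%), Irf7, Ripk1, Azi2 and Ikbkg, with log2 fold changes of 1.70, 1.00, 0.59 and 0.52, and at 12 hrs Irf7 alone passed the test (6.67%, below the share of all genes), with 2.52 ± 0.17 (adjusted p = 1.50e-24). Of 19 genes of STING trafficking and turnover 2 were higher at 12 hrs (10.5%, near the share of all genes), the partners Nmi and Ifi35 (2.26 ± 0.23 and 2.18 ± 0.13). Of 9 negative regulators of RNA sensing Usp18 (1.88 ± 0.17) and Cyld (0.52 ± 0.18, adjusted p = 0.0431) were higher (22.2%), where DESeq2 called 1 of the class, and of 8 partners of PKR and ZBP1 Mlkl, the executioner of necroptosis, rose by 1.57 ± 0.12 (1 of 8, 12.5%). At 4 hrs 2 of these 8 were higher (25%), Mlkl by 1.34 ± 0.14 and the transcription factor Atf4 by 0.27 ± 0.07 (adjusted p = 0.00884). At that time 2 cofactors (18.2%), 2 genes of STING trafficking (10.5%) and 1 negative regulator (11.1%) were higher. Ripk3, also listed as a partner of ZBP1, reached at most 3 counts in any well and did not pass the filter. The 6 listed genes of type I and III interferons were not analysed here.

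**Figure D4:**
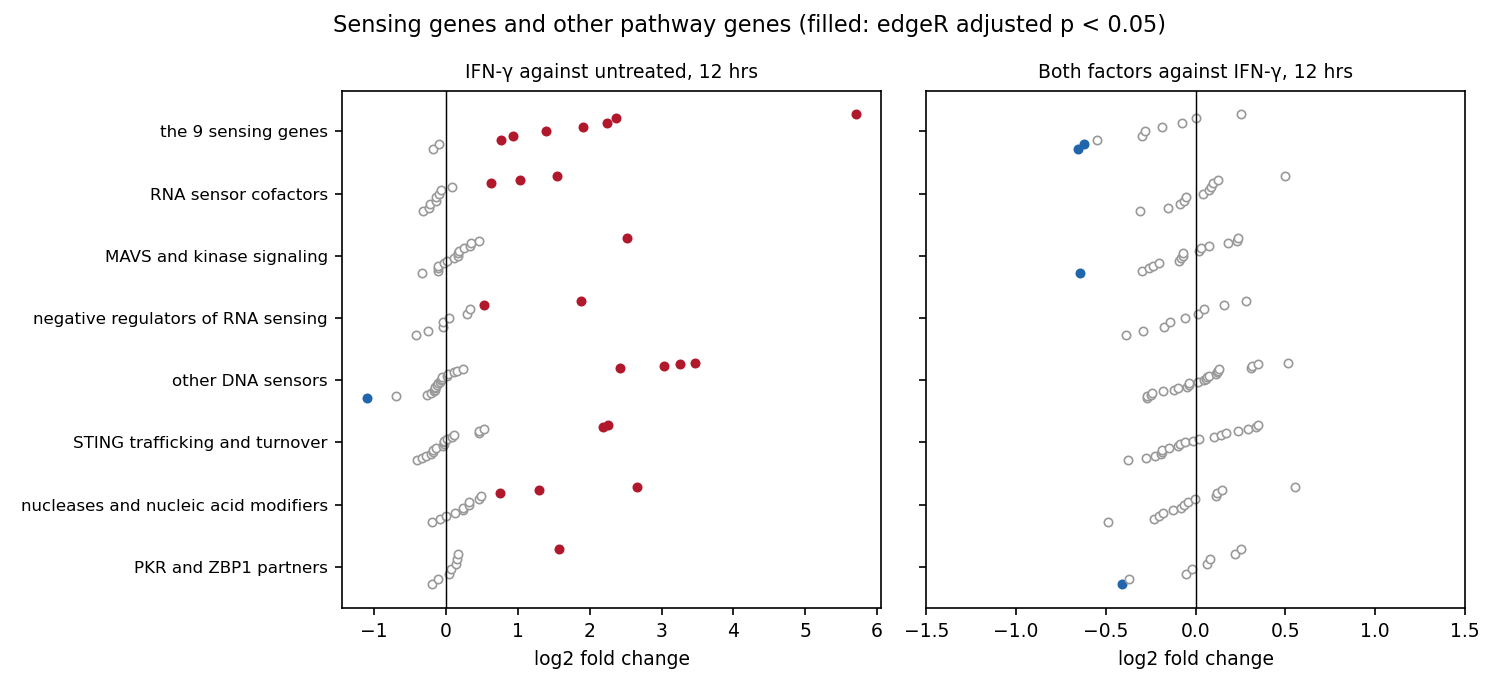
Log2 fold changes at 12 hrs of the 9 sensing genes and of 98 other pathway genes by class, for IFN-γ against untreated (left) and both factors against IFN-γ (right); each dot is a gene, ordered by value within its class, and filled dots have an edgeR adjusted p under 0.05 (red higher, blue lower). On the left the 9 sensing genes include 7 filled dots and the 98 other genes 17; on the right 2 and 2 are filled, all lower.

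With both factors, the 2 listed genes that were lower than with IFN-γ alone at 12 hrs were Irf7, the transcription factor that amplifies type I interferon, and Mlkl. Irf7 had 74.3 ± 17.0 CPM against 116 ± 23.3 CPM (SD, n = 4), with a log2 fold change of -0.64 ± 0.14 (edgeR adjusted p = 0.00168), and its groups overlapped. Mlkl had 99.7 ± 8.10 against 132 ± 11.0 CPM without overlap (-0.41 ± 0.11, adjusted p = 0.0342). At 4 hrs Lrrc8c, a subunit of the anion channels through which cGAMP can pass, was higher with both factors, with 71.3 ± 5.19 against 47.3 ± 5.36 CPM (0.56 ± 0.15, adjusted p = 0.0431). As given above, DESeq2 called none of the listed genes for both factors against IFN-γ. The shares that edgeR called were near those of all genes.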

How the data were processed

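The authors deposited raw counts per gene for 32 wells. The submitters' processing notes name STAR 2.7.10b, featureCounts, DESeq2 1.36.0 and the build GRCm39, and the annotation and any collapse of molecular identifiers are not given in the sources used here. Without such collapse, duplicate reads stay in the counts. Symbols were matched for 12437 of 12451 identifiers in GENCODE M21 (GRCm38), a different build, so no coordinates of the count table are given, and the sequences are from RefSeq's GRCm38.p6. Groups follow the treatment and time of the labels.

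The filterByExpr function removed genes with low counts, TMM factors scaled the totals, and genes were tested with edgeR 4.0.16 in R 4.3.3 (glmQLFit and glmQLFTest) over the 16 wells of a time, or over all 32 for contrasts between times. All 9 sensing genes with counts passed the filter in these fits. For Activin-A against untreated cells and for untreated cells over time, Eif2ak2 and Zbp1 did so only through wells of other groups. With only the 8 samples compared in the fit, these genes did not pass, and 7 genes were tested. For IFN-γ against untreated cells and both factors against Activin-A, these genes passed only through the wells with IFN-γ, where they were high. Their calls as higher in those comparisons are therefore not independent of the filter. P-values were adjusted by Benjamini-Hochberg over all genes tested (threshold 0.05), SE are from the fitted coefficients, and a prior count of 2 entered log2 CPM. Counts of genes with an unadjusted p under 0.05 are given without the share of all genes, and no conclusion is drawn from them. The 9 genes, the list of 115 genes and the genes named from it (at most 4 called genes of a class with the largest changes) followed rules and lists chosen with earlier results of these data known. All 9 genes are reported in each comparison by value or count. Polr3g fell outside that rule and was named after its value was seen, as the 1 listed gene that was lower with IFN-γ. Alternatives were DESeq2 1.42.0, RLE normalization, other filters, a replicate block, other samples in the fit, an adjusted p under 0.01 and leaving out each well.

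A simulation of IFN-γ against untreated cells at 12 hrs took its means from the untreated wells and 1 fixed spread for all genes. The genes changed were drawn from those with a mean of at least 10 counts. Of these, edgeR recovered 83 of 100 changed by 1 on the log2 scale and 99 of 100 changed by 2. It made 7 false calls over 8873 genes tested. DESeq2 recovered 78 and 98 with 3 false calls over 9843 genes. Recovery of scarcer genes, such as Zbp1 with 4 or 5 counts in the untreated wells, was not tested. In a comparison without change both called 0.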

Additional observations from a re-analysis of the deposited data

Results flagged for a closer look

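In 72 sets of 4 wells (9 genes in 8 groups) the lowest or the highest well was compared with the rest, and 2 sets held a well that stood far from the other 3. Chance alone does so in about 1 of 20 sets. Mavs had 60.9 CPM in replicate 2 of the untreated wells at 12 hrs, below the 72.7 to 74.8 CPM of the others. Tbk1 had 23.1 CPM in replicate 2 of the untreated wells at 4 hrs, above the 18.7 to 19.3 CPM of the others. The wells carry the same replicate number but are of different times, and neither gene was called in a comparison that used them.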

How the results depend on the processing

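The 28 results of single sensing genes that passed the test were recomputed 426 times under the alternatives: the sign changed in 0 and the call was lost in 27. Of 1391 alternative values of the 80 results that did not pass, 0 passed and 86 changed sign. Alternatives that gave a gene no adjusted p enter none of these counts. This left out called results, such as Ifih1 with DESeq2 for both factors against IFN-γ at 12 hrs. For both factors against IFN-γ at 12 hrs, 2 sensing genes were called, and 0 with DESeq2, which gave an adjusted p to 4 of the 9 genes, 1 at an adjusted p under 0.01, 1 with at least 10 counts in every sample, and 0 to 2 when each well was left out. Requiring 10 counts in every sample left 4 of the 9 genes in the test for comparisons within a time and 3 for contrasts between times. The calls for IFN-γ against untreated then were 1 at 4 hrs and 2 at 12 hrs, and for both factors against Activin-A 1 and 2. Over all genes, DESeq2 called 85 and 124 genes for Activin-A at 4 and 12 hrs, where edgeR called 150 and 216. For both factors against IFN-γ it called 45 and 54, where edgeR called 74 and 92, or 120 at 4 hrs with the 8 samples compared alone in the fit. For both factors against Activin-A at 12 hrs DESeq2 called 550 against 863, and for untreated cells over time 284 against 457. An adjusted p under 0.01 gave 86 for Activin-A at 4 hrs, 40 and 51 for both factors against IFN-γ, 558 for both factors against Activin-A at 12 hrs, 234 for untreated cells over time and 32 of 54 for the effect of IFN-γ over time. The interaction called 0 genes at 4 hrs and 1 at 12 hrs, and 1 and 8 without a filter on low counts. Leaving out 1 well moved the number of genes called by over 1.5 times in these cases. Both factors against IFN-γ at 4 hrs fell from 74 to 47 or 49 without replicate 4 of both factors or replicate 1 or 2 of IFN-γ. Untreated cells over time fell from 457 to 302 without replicate 1 at 12 hrs, and the effect of IFN-γ over time from 54 to 35 without untreated replicate 4 at 4 hrs. The interaction ranged from 0 to 6 genes at 12 hrs, where 14 of 16 wells moved the count of 1, and from 0 to 1 at 4 hrs, where 1 gene was called without replicate 1 of Activin-A. The cause of these differences was not tested.

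Replicate numbers did not pair the wells: deviations of same-numbered wells had a mean correlation of -0.000234 over 112 pairs (-0.0894 to 0.0421), and 7 of 32 wells correlated best with a well of their own number. With the replicate block Dhx58 had 0.71 (edgeR adjusted p = 0.0537) for both factors against Activin-A at 4 hrs, where 5 of the 9 genes were called in place of 6, and the counts of called sensing genes in the other comparisons did not move. Low counts limit Zbp1, Eif2ak2, Ifih1, Dhx58, Ddx58 and Cgas in wells without IFN-γ. The floor of 3 counts is close for Zbp1 and for the lowest wells of Eif2ak2 and Ifih1, with 4 and 5 counts. The lowest wells of Dhx58, Ddx58 and Cgas had 6 counts, and most of their wells lay further above the floor. Zbp1 was below it in single wells with Activin-A, with lowest counts of 2 at 4 hrs and 1 at 12 hrs. Low counts also limit Ifi205, a listed pathway gene, whose untreated means were near or below the floor.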
